A study of Mus musculus with 22 samples.

Results

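Poly(A) sites were compared in steady-state (total) RNA of C2C12 cells, a mouse myoblast line, between libraries labelled siPcf11 and control libraries. They were chosen by sample title, as every site listed in 4 of the 22 libraries of the series: 2 siPcf11 input libraries and 2 control input libraries. The control cells carry the label untreated and the other cells the label siPcf11, and both carry the strain label C57BL/6. No control siRNA is named, so the effects of transfection and of Pcf11 cannot be told apart. The libraries were made with 3′READS, a method that reads RNA where its poly(A) tail begins, so that each read marks one RNA 3′ end. Nothing in the labels ties the libraries of a group to separate cultures, so the spread behind the p-values may be technical only. For the edgeR tests within C2C12, that spread was estimated over 8 libraries with 2 per group. These include libraries of newly made RNA, which may come from the same cultures.

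PCF11 is a subunit of the machinery that cleaves a new transcript and adds its poly(A) tail, and it binds the C-terminal domain of RNA polymerase II and takes part in ending transcription. Many genes carry several poly(A) sites, and the site used sets where the RNA ends. A proximal site gives a shorter RNA, which can lack part of the 3′ untranslated region or, for sites inside the gene body, part of the coding sequence. A distal site gives a longer one.

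The control libraries held 2265023 and 2476170 reads and the siPcf11 libraries 1887532 and 2455002. Together, the 12 C2C12 libraries of the series listed 300626 positions. Of these, 39540 were kept, which reached 1 CPM or more, the read count divided by library size, in 2 or more libraries. Kept sites took 98.3% to 98.6% of the reads of each of the 4 libraries. The share at all other positions was 1.71% and 1.68% in controls and 1.416% and 1.43% under siPcf11, and so was not higher under siPcf11. Sites on one strand that followed each other within 5 kb were joined into 18349 site groups, of which 8078 held 2 or more sites. A site group stands here in place of a gene, since the deposited positions (mouse genome mm9) carry no gene name and no annotation of that build was used. The level of Pcf11 itself, muscle markers, gene lists and the place of a site in an exon, intron or untranslated region were therefore not analysed here. All positions below are in mm9. PCR copies are not separate molecules, and a limit from a count of 0 covers counting error only.

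The choice between the proximal and the distal of the 2 most used sites of a site group was compared first. Under siPcf11, reads moved to the distal site more often than to the proximal one. Of 3135 pairs tested, 770 moved to the distal site (24.6%) and 254 to the proximal site (8.10%), with both sites of a pair tested jointly (edgeR, Benjamini-Hochberg adjusted p under 0.05). Distal use, the share of a pair's reads at its distal site, averaged 50.1% and 50.2% in the control libraries and 54.97% and 55.3% in the siPcf11 libraries, over 2935 pairs with at least 10 reads in each. The difference was 4.98 percentage points, and the groups did not overlap (exact two-sided permutation p = 0.3333, the smallest that 2 libraries against 2 allow). The upper quartile of the change was 12.3 points and the lower quartile fell by 3.57 points, so pairs differed widely among themselves. A test of the distal site alone, which in simulated counts recovered 43.4% of 4-fold shifts against 85.2% for the joint test, called 326 and 96 pairs.

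The shift was larger for pairs whose sites lay farther apart, among the 2935 pairs with at least 10 reads in each library. For 690 pairs less than 200 nt apart, distal use changed by a median of 1.40 points, and 70 of them moved to the distal site (10.1%) and 27 to the proximal one (3.91%). The median was 1.32 points from 200 nt, 2.89 points from 500 nt and 5.30 points from 1000 nt. From 2000 nt to under 5000 nt it reached 10.4 points, with 281 of 634 pairs to the distal site (44.3%) and 66 to the proximal site (10.4%). Calls in both directions were thus more frequent among distant sites, and calls to the distal site led in every class. The 84 pairs at 5000 nt or more had a median of 6.99 points, with 37 to the distal site and 10 to the proximal site. The classes are a description with no test, and they were not matched for read depth.

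**Figure D1:**
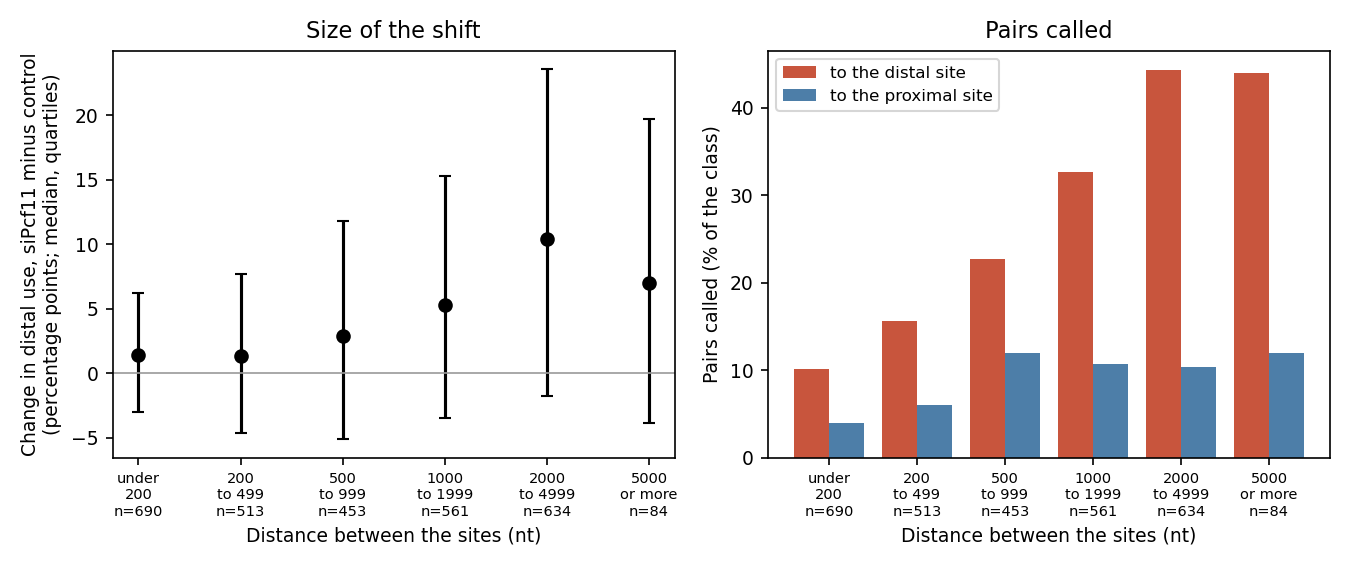
Left, median change in distal use (percentage points, siPcf11 minus control; bars span the quartiles) in 6 classes of distance between the proximal and distal site (nt), over pairs with at least 10 reads in each of the 4 libraries. Right, percent of each class called to the distal or the proximal site. The median runs from 1.40 points under 200 nt to 10.4 points in the class from 2000 nt, and calls to the distal site from 10.1% to 44.3%.

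The shift also differed with how much the distal site was used to begin with. This was read from 2 other untreated C2C12 libraries (titled pro), which enter none of the comparisons. Where the distal site took under 10% of the pair's reads there, 148 of 306 pairs moved to it and 11 away from it, with a median change of 5.66 points. Mean distal use of these pairs was 7.34% and 7.33% in controls and 17.1% and 17.2% under siPcf11. Where the distal site took 90% or more, the direction was mixed, with 25 of 217 pairs to the distal site, 35 to the proximal site and a median change of -0.38 points. Among pairs at least 1000 nt apart whose distal site took under 10%, 107 of 161 moved to the distal site (66.5%) and 6 moved away, with a median change of 11.9 points. The pairs themselves were chosen from total RNA reads that include the siPcf11 libraries. A site little used in the libraries titled pro could thus enter a pair through its siPcf11 reads. That choice favours gains at the less used site in the lowest and highest classes, and its part was not tested.

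Each pair's sites were then tested singly, to see which of them gained or lost reads. Among the 770 pairs that moved to the distal site, the proximal site was lower in 455 (59.1%) and the distal site higher in 473 (61.4%), and both held in 180. Over all 3135 pairs the proximal site was lower in 1062 (33.9%) and the distal site higher in 905 (28.9%). In 221 of the 770 pairs the proximal site fell with no call at the distal one. In 248 of the 770 the distal site rose with no call at the proximal one. The median log2 fold changes of the 770 pairs were -0.92 at the proximal and 0.92 at the distal site. These values are with TMM scaling, and the balance depends on it: with library totals the proximal site was lower in 519 of the same pairs and the distal site higher in 416, with medians of -1.10 and 0.74. The total reads of the site group did not move one way: 245 of these 770 groups were higher (31.8%) and 216 lower (28.1%), with a median of 0.04. Among the groups of all 3135 pairs, 25.9% were higher and 32.6% lower. Among all 11081 site groups tested for level, 24.3% were higher and 27.5% lower. Among the 254 pairs that moved to the proximal site, the proximal site was higher in 127 and the distal site lower in 158, with both in 41. All of these use the same contrast as the call of the pair, and are a description.

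**Figure D2:**
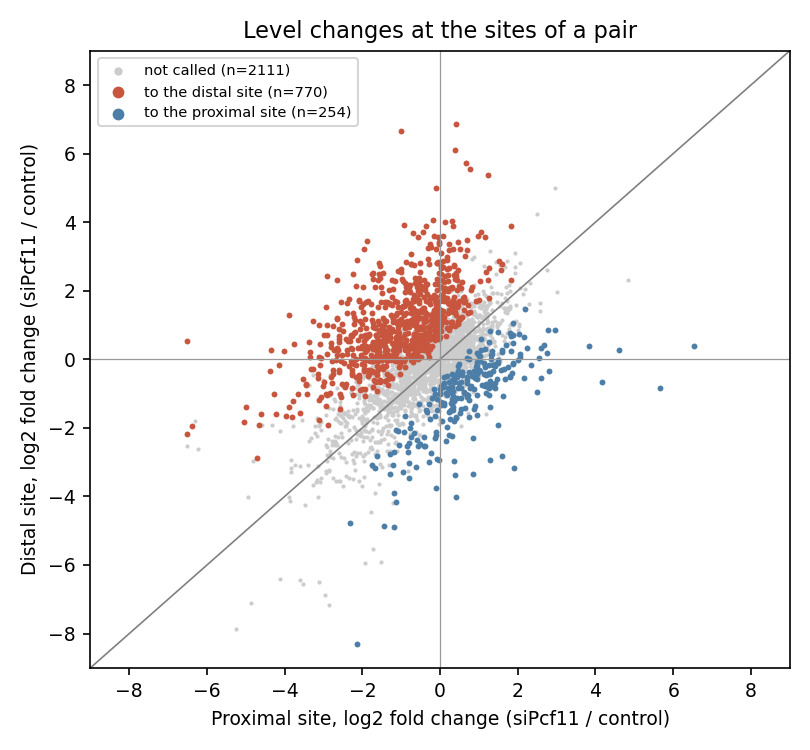
Log2 fold change (siPcf11 over control) of the distal site against that of the proximal site, one point per pair, coloured by the call of the pair, with the line of equal change. The 770 pairs called to the distal site lie above the line on both sides of zero, and the 254 called to the proximal site below it.

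The pair with the largest shift lay on chromosome 19, plus strand, with its sites 2103 nt apart at 5455946 and 5458049. The proximal site had 625 and 635 reads in controls and 97 and 136 under siPcf11, while the distal site had 199 and 151 in controls and 1071 and 1022 under siPcf11. Distal use was 21.7% ± 3.49 in controls and 89.98% ± 2.43 under siPcf11 (SD, n = 2; log2 shift 5.04, SE 0.23, adjusted p = 6.52e-35). The proximal site fell and the distal site rose, and the whole site group was 0.62 higher on the log2 scale (adjusted p = 1.17e-06).

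A second pattern was gain at the distal site with little change at the proximal one. On chromosome 8, plus strand, the proximal site at 114146973 had 40 and 82 reads in controls and 30 and 36 under siPcf11 (log2 fold change -0.57, adjusted p = 0.0789). Its distal partner at 114149620 had 16 and 25 reads in controls and 165 and 230 under siPcf11 (log2 fold change 3.56, adjusted p = 6.26e-38). Distal use went from 25.97% ± 3.68 to 85.5% ± 1.31 (n = 2), and the site group rose by 1.74 on the log2 scale (adjusted p = 4.66e-21).

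The reverse, loss at the proximal site only, was seen on chromosome 19, minus strand, with sites at 5730319 and 5728087. The proximal site had 355 and 327 reads in controls and 15 and 43 under siPcf11 (log2 fold change -3.27, adjusted p = 1.86e-39). The distal site had 188 and 232 reads in controls and 120 and 161 under siPcf11 (log2 fold change -0.28, adjusted p = 0.179). This site group fell by 1.41 on the log2 scale (adjusted p = 1.43e-19), so a rise in distal use of 45.8 points came with fewer RNAs in total.

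In other pairs both sites changed and the level of the site group was not called. On chromosome 5, plus strand, the site at 138082324 had 79 and 62 reads in controls and 17 and 23 under siPcf11, and the site 1806 nt downstream at 138084130 had 16 and 20 in controls and 53 and 73 under siPcf11. The site group's log2 fold change was -0.06 (adjusted p = 0.814). On chromosome 6, plus strand, the sites at 87862524 and 87863589 gave 17.5% and 19.8% distal use in controls and 62.2% and 69.2% under siPcf11 (adjusted p = 1.02e-18), with a site group change of -0.17 (adjusted p = 0.293).

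Across the 12 pairs with the largest shifts to the distal site, control means lay between 11.8% and 38.1% and siPcf11 means between 61.8% and 91.4%. In 11 of them the sites were at least 1000 nt apart. The proximal site was lower in 11 of the 12 and the distal site higher in 11. The site group's level was higher in 3, lower in 3 and not called in 6. Members of both named sets were chosen for large and non-overlapping shifts, a property that 62.7% of all tested pairs have as far as overlap goes.

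Shifts to the proximal site were fewer, and the largest was of the same order. On chromosome 2, plus strand, the proximal site at 32425271 had 35 and 45 reads in controls and 141 and 228 under siPcf11, and the distal site at 32429091 had 216 and 201 in controls and 68 and 108 under siPcf11. Distal use dropped from 83.9% ± 3.07 to 32.3% ± 0.278 (SD, n = 2; log2 shift -3.45, SE 0.29, adjusted p = 3.59e-18). Both siPcf11 libraries lay far below both controls.

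The most widely spaced of these pairs lay on chromosome 9, minus strand, 10030 nt apart at 122985950 and 122975920. Its distal site had 287 and 329 reads in controls and 43 and 64 under siPcf11 (log2 fold change -2.23, adjusted p = 8.22e-25), while the proximal site had 209 and 245 in controls and 178 and 280 under siPcf11 (0.30, adjusted p = 0.117). Distal use was 57.9% and 57.3% in controls and 19.5% and 18.6% under siPcf11. The loss was thus at the distal end, with the site group 0.62 lower (log2 fold change -0.62, adjusted p = 1.36e-05).

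On chromosome 14, minus strand, an RNA end that was almost unread in controls appeared under siPcf11. The proximal site at 31827472 had 1 and 8 reads in controls and 42 and 65 under siPcf11 (log2 fold change 3.83, adjusted p = 1.84e-16), while the distal site at 31825619 had 74 and 89 in controls and 64 and 110 under siPcf11 (0.38, adjusted p = 0.127). Distal use went from 98.7% and 91.8% to 60.4% and 62.9%, and the site group was 1.09 higher on the log2 scale (adjusted p = 2.19e-08).

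Over the 12 pairs with the largest shifts to the proximal site, control means lay between 46.96% and 95.2% and siPcf11 means between 14.0% and 62.3%. The proximal site was higher in 10 and the distal site lower in 10. One pair had a lower proximal site: on chromosome 11, minus strand, both the site at 51414577 (log2 fold change -0.43, adjusted p = 0.0144) and the site at 51413602 (-2.52, adjusted p = 1.81e-39) fell, the distal one more.

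**Figure D3:**
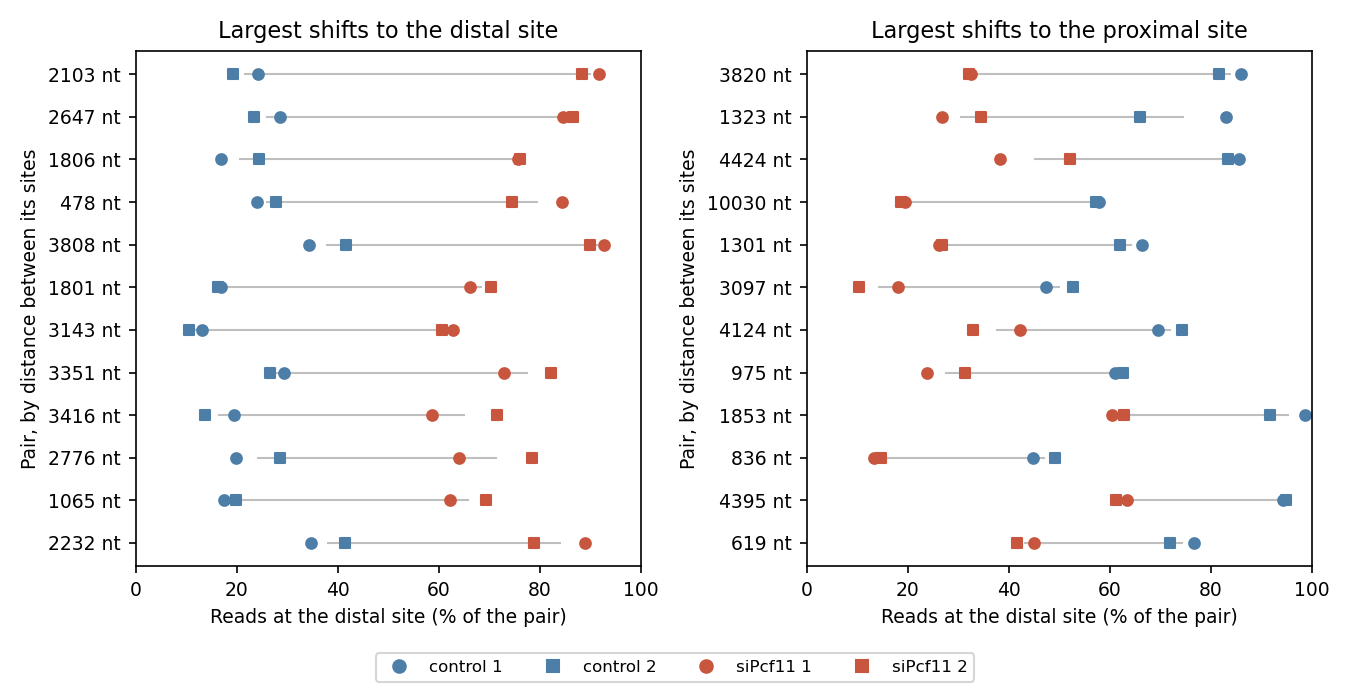
Distal use (percent of a pair's reads) in each control and siPcf11 library for the 12 pairs with the largest shift to the distal site (left) and the 12 with the largest shift to the proximal site (right). Each row is a pair, labelled with the distance between its sites, and the grey line joins the group means. On the left siPcf11 means lie between 61.8% and 91.4%, and on the right between 14.0% and 62.3%, with no overlap of the groups by choice.

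The position of a site along its group was examined next. Each site with at least 5% of its group's reads that passed the count filter was tested, and not only a pair. Of 7651 sites, 590 gained in use (7.71%) and 630 lost (8.23%). The first tested site of a group, the one nearest the 5′ end among those tested, lost use in 412 of 3168 groups and gained in 108. The last tested site gained in 416 and lost in 114. In 2215 of these groups only 2 sites were tested, so a gain at one is a loss at the other. These groups held 282 of the first-site losses and 247 of the last-site gains, and largely repeat the result of the pairs. Sites between the first and the last, 1315 in 953 groups, showed a smaller imbalance in the direction of the first site, with 104 less used and 66 more used. In groups of 3 tested sites, 95 of 682 first sites, 56 middle sites and 30 last sites lost use. In larger groups the first site still lost use most often, but last sites lost it more often than middle ones: 8.37% against 6.90% with 4 tested sites and 10.3% against 8.81% with 5 or more. In the 68 groups of 5 or more, the median log2 change in use of the last site was -0.05.

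Set against all the other used sites of its group together, the most 5′ used site was less used in 742 of 2986 groups (24.8%) and more used in 237 (7.94%). A used site here is one with at least 5% of the group's reads. Mean use of the most 5′ site was 43.4% and 43.2% in controls and 38.7% and 38.5% under siPcf11, over 2830 groups with at least 10 reads in each library. The loss was most frequent where this site stood alone: with 2000 nt or more to the next used site, 239 of 536 were less used (44.6%) and 53 more used, and the median change was -9.28 points. Under 200 nt, 114 of 911 were less used. In groups with only 2 used sites this comparison takes the same reads as the pairs. The 1259 groups with 3 or more used sites share only a part of their reads with the pairs, and in these 254 were less used and 107 more used.

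Of the 6 most 5′ sites with the largest loss, 5 belonged to pairs in the named sets. The sixth lay on chromosome 14, minus strand, at 67634776, with the next used site 269 nt downstream. It had 68 and 79 reads in controls and 10 and 37 under siPcf11, or 75.8% ± 10.1 of its group against 27.3% ± 10.3 (SD, n = 2; log2 shift -2.79, SE 0.42, adjusted p = 5.77e-09). In the other direction, a site at 43045286 on chromosome 4, minus strand, rose from 5.73% and 5.10% of its group to 36.7% and 38.8%. Its own reads were 18 and 18 in controls and 33 and 50 under siPcf11, while the other used site went from 296 and 335 to 57 and 79 and the site group fell by 1.34 on the log2 scale (adjusted p = 2.18e-15).

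Some ends were read in only one group. Of the kept sites, 421 had at least 10 reads over both controls and none under siPcf11, and 129 had at least 10 under siPcf11 and none in controls. The siPcf11 libraries were also the shallower group, and the part of depth in this difference was not tested. At 38916005 on chromosome 5, minus strand, the siPcf11 libraries had 31 and 38 reads and the controls none, at least 28.3-fold higher against 3 counts over both controls. The 4sU libraries of newly made RNA had 6 and 9 reads there in controls and 36 and 48 under siPcf11, so some reads ended there in control cells too. The site at 47391196 on chromosome 14, plus strand, had 56 and 59 reads in controls and none under siPcf11, at least 31.2-fold lower. At 53518501 on chromosome 19, minus strand, the counts were 48 and 36 in controls and none under siPcf11 (at least 22.8-fold lower), and none in either 4sU siPcf11 library.

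RNA levels were compared on the summed reads of each site group. Of 11081 groups, 2688 were higher under siPcf11 (24.3%) and 3047 lower (27.5%), so 51.8% passed the threshold. At least 2-fold changes were more often decreases, 1973 (17.8%) against 1132 increases (10.2%). Scaled by library totals alone, 1989 groups rose and 3675 fell, and the median of all groups moved from -0.02 to -0.19 on the log2 scale. The share of called groups that were higher was 46.9% with TMM scaling, which allows for differences in RNA composition, and 35.1% with totals. Changes are therefore given below mainly relative to all groups. Increases outnumbered decreases without siPcf11 replicate 1 (2802 against 2437) and without siPcf11 replicate 2 (2625 against 2304). In bulk RNA a change in RNA per cell cannot be told apart from a change in which cells are present.

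The 12 largest increases were chosen by fold change, at a mean of 10 CPM or more over the 4 libraries. They were scarcely read in controls, which that choice favours. The site at 137816878 on chromosome 4, plus strand, had 2 and 1 reads in controls and 45 and 47 under siPcf11, or 0.625 CPM ± 0.332 against 23.5 CPM ± 3.71 (SD, n = 2; log2 fold change 5.12, SE 0.53, adjusted p = 4.48e-19). On the minus strand of chromosome 8, at 73406788, there were 4 and 10 reads in controls and 130 and 162 under siPcf11 (log2 fold change 4.66, SE 0.30, adjusted p = 3.90e-43). A 4-site group on chromosome 15, minus strand, from 75705616 to 75711675, had 8 and 4 reads in controls and 72 and 77 under siPcf11 (log2 fold change 3.91, SE 0.36, adjusted p = 1.03e-23). Of the 12 largest increases, 8 were groups of 1 site, and control means lay between 0.625 and 3.94 CPM.

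The 12 largest decreases, chosen the same way, were scarcely read under siPcf11, which that choice favours. The 3-site group from 47391196 to 47391284 on chromosome 14, plus strand, which holds the unread end named above, had 66 and 67 reads in controls and 0 and 1 under siPcf11 (log2 fold change -6.48, SE 0.62, adjusted p = 2.88e-22). On chromosome 8, minus strand, the group from 123621417 to 123621837 had 65 and 68 reads in controls and 0 and 1 under siPcf11 (log2 fold change -6.48, SE 0.61, adjusted p = 1.54e-22). The deepest of the set, from 56295045 to 56297976 on chromosome 14, minus strand, had 119 and 137 reads in controls and 2 and 6 under siPcf11 (log2 fold change -4.67, SE 0.36, adjusted p = 2.23e-32). Of the 12 largest decreases, 2 were groups of 1 site, and siPcf11 means lay between 0.222 and 1.91 CPM.

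The 5 most read groups among those called were all higher, the mitochondrial plus strand among them (0.55). That strand had 24573 and 26969 CPM in controls and 32112 and 43526 CPM under siPcf11, so the siPcf11 libraries differed widely. Among the 2216 groups in the highest of 5 equal parts by level in the libraries titled pro, 33.2% were higher and 36.3% lower. The group from 10058817 to 10061064 on chromosome 19, plus strand, had 7441 and 7592 CPM in controls and 14897 and 14817 CPM under siPcf11 (log2 fold change 0.98, SE 0.10, adjusted p = 2.51e-19). The group from 76731735 to 76739475 on chromosome 15, plus strand, rose by 0.48 (SE 0.10, adjusted p = 6.18e-06). For the groups from 3761181 to 3762220 on chromosome 4 (0.33, adjusted p = 0.00308) and from 104865465 to 104870461 on chromosome 5 (0.25, adjusted p = 0.0246), the call was lost with library totals as the scaling (log2 fold changes 0.15 and 0.07, adjusted p = 0.204 and 0.557). It was also lost without control replicate 2 for the former (0.28, adjusted p = 0.0777) and without control replicate 1 for the latter (0.17, adjusted p = 0.284).

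Levels moved with the distance to the next site group downstream on the same strand, a grouping chosen after the values were seen. Groups with another one less than 10 kb downstream had a median log2 fold change of -0.30, or -0.29 relative to all groups, with 201 of 1043 higher (19.3%) and 401 lower (38.4%). The medians relative to all groups were -0.15 at 10 to 20 kb, -0.09 at 20 to 50 kb, 0.03 at 50 to 100 kb, 0.04 at 100 to 200 kb and 0.14 at 200 kb or more. In the last class, 904 of 3235 were higher (27.9%) and 662 lower (20.5%). With library totals as the scaling its own median was -0.05 in place of 0.12, while its median relative to all groups was 0.14 under both scalings. The difference between the nearest and the farthest class was -0.43, and it lay between -0.49 and -0.37 in the 12 other settings run, the lowest without siPcf11 replicate 1 and the highest without siPcf11 replicate 2. This distance runs from one set of RNA ends to the next. Where the next group belongs to another gene, the distance holds that gene's length as well as any space between genes. Without annotation, next groups of the same gene could not be told apart from other genes, and their part was not tested.

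**Figure D4:**
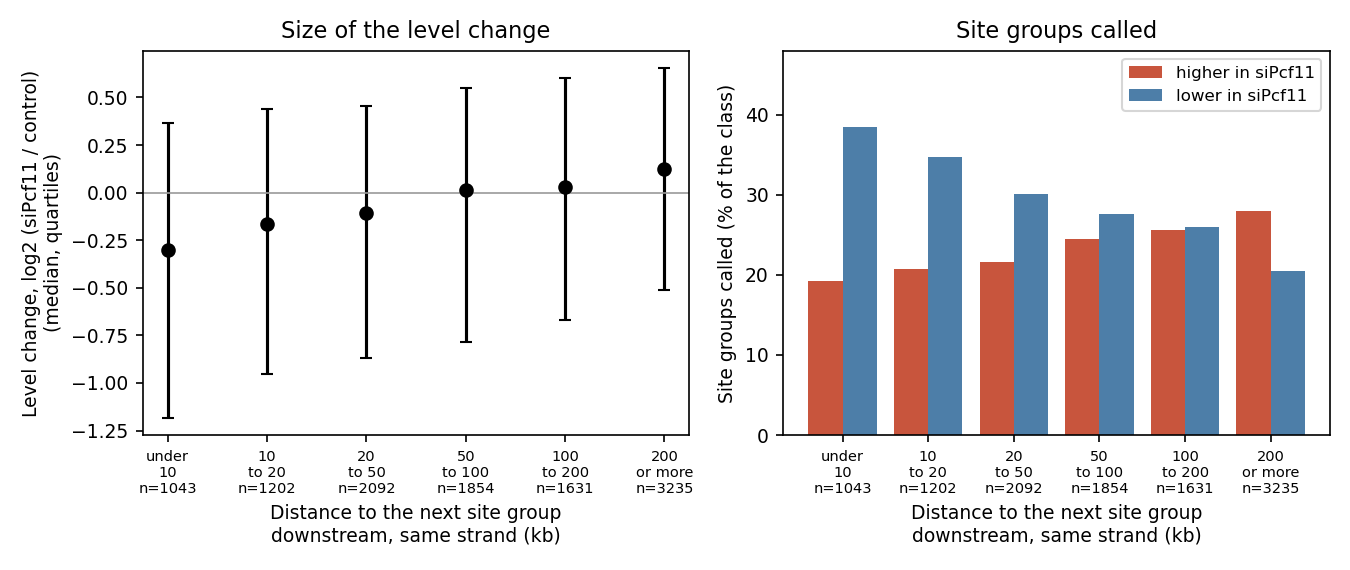
Left, median log2 level change of site groups (siPcf11 over control, TMM scaling; bars span the quartiles) by distance in kb to the next site group downstream on the same strand. Right, percent of each class called higher or lower. The median rises from -0.30 under 10 kb to 0.12 at 200 kb or more, and the share called lower falls from 38.4% to 20.5%. With library totals as the scaling the last median is -0.05.

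Upstream distance went with smaller differences in the median. From the nearest to the farthest previous neighbour, in the same 6 classes, the medians were -0.02, -0.14, -0.08, 0.01, 0.03 and 0.03. The share called lower was 31.7%, 34.6%, 30.4%, 26.9%, 25.5% and 22.5%, so it too was higher among groups with a near neighbour. In the contrasts of single siPcf11 with single control libraries the median of the nearest class lay between -0.09 and -0.07. With the upstream neighbour at 200 kb or more, the median still went from -0.47 (n = 225) with the downstream neighbour under 10 kb to 0.15 (n = 1265) with it at 200 kb or more. With the downstream neighbour at 200 kb or more, the median was 0.13 (n = 214) for an upstream neighbour under 10 kb. On the opposite strand, groups with a facing end less than 1 kb ahead had a median of -0.22 (n = 549), with 212 lower (38.6%) and 115 higher (20.9%), and those with 200 kb or more had 0.10 (n = 3365). Relative to all groups these medians were -0.21 and 0.11, and the same 2 values with library totals.

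The nearest and farthest downstream classes were also compared within ranges of expression, read again from the libraries titled pro. In each of 5 equal parts of the groups, ordered by that level, the median was lower in the class under 10 kb than in the class at 200 kb or more: -0.21 against 0.29 in the lowest, -0.52 against 0.09 in the next, -0.37 against 0.17 in the middle, -0.18 against -0.04 in the next and -0.23 against 0.12 in the highest. The classes between them did not keep a steady order in every part. The gap was smallest in the part just below the highest, where 185 of 612 groups at 200 kb or more were higher and 184 lower. The same difference was seen in groups of 1 site (-0.20 against 0.20) and in groups of 2 or more sites (-0.35 against 0.10). Groups that spanned more sequence were lower, with a median of 0.08 for 1 site and -0.17 for spans of 5000 nt or more, where 303 of 796 were lower (38.1%) and 168 higher (21.1%). Strand made no difference, with medians of -0.02 (plus) and -0.01 (minus). Among chromosomes, the lowest median was that of chromosome 17 (-0.16, n = 520) and the highest that of chromosome 18 (0.12, n = 289), apart from the mitochondrial genome.

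The same pairs were read in libraries of newly made RNA from C2C12 cells labelled with 4-thiouridine (4sU), which may come from the same cultures and entered the same fit. For 746 pairs called to the distal site and read in all 8 libraries, mean distal use in total RNA was 41.1% and 41.5% in controls and 63.9% and 63.5% under siPcf11. In 4sU RNA it was 44.3% and 44.8% in controls and 61.5% and 61.5% under siPcf11. Over all 2882 pairs read in all 8 libraries, mean distal use in 4sU RNA was 51.0% and 51.4% in controls and 55.0% and 55.0% under siPcf11. All 24 named pairs moved the same way in 4sU RNA, with no overlap of the groups. They were chosen for large shifts in total RNA, and the share of all pairs without overlap in 4sU RNA is not given here. A test of the difference itself called 3 of 3135 pairs (0.0957%; edgeR), 1 with a larger and 2 with a smaller shift in 4sU RNA, and 279 had an unadjusted p under 0.05. For levels the difference was called in 95 of 11081 groups (0.857%).

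NIH3T3 fibroblasts, with 2 siPcf11 and 2 untreated libraries of their own, share no library with the comparison. Their positions were matched to C2C12 sites within 24 nt, which placed 92.1% of their reads. Of 679 pairs called to the distal site in C2C12 and read in NIH3T3, both siPcf11 libraries lay above both controls in 396 (58.3%) and below both in 22 (3.24%), against 34.4% and 13.4% of all 2674 pairs read there. Mean distal use of the 679 was 44.3% and 44.7% in NIH3T3 controls and 54.6% and 55.6% under siPcf11. Of 225 pairs called to the proximal site in C2C12, 81 lay below both NIH3T3 controls in both libraries (36.0%) and 27 above. Of the named pairs read at both sites in NIH3T3, 8 of 10 moved the same way for the distal set and 7 of 10 for the proximal set. A distal-set pair on chromosome 2, minus strand, at 103607268 and 103606790 had 16 to 92 NIH3T3 reads per library, all at the proximal site. A proximal-set pair on chromosome 10, minus strand, at 23506277 and 23504954 had 180 to 462, all at the distal site. Neither shifted in NIH3T3, and both are outside these counts. The pair on chromosome 10, minus strand, at 77736345 and 77732537 had 34.2% and 41.6% distal use in C2C12 controls and 92.7% and 90.02% under siPcf11. In NIH3T3 it had 31.3% and 33.8% in controls and 69.98% and 80.7% under siPcf11.

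**Figure D5:**
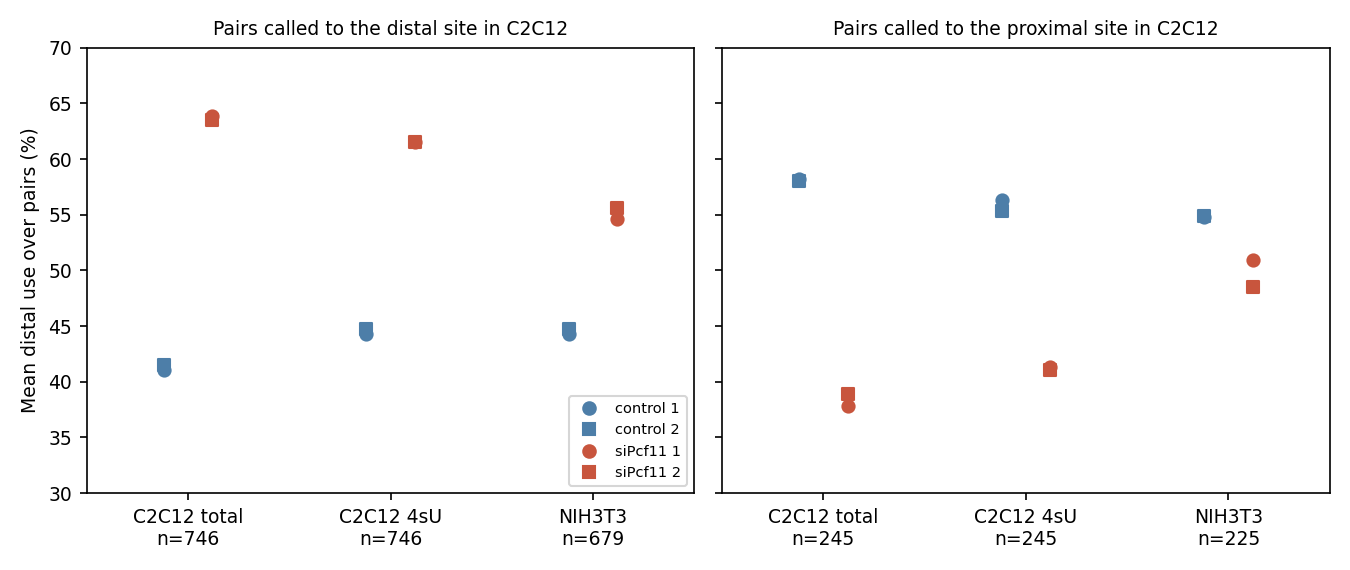
Mean distal use (percent) in each library of C2C12 total RNA, C2C12 4sU RNA and NIH3T3, over the pairs called in C2C12 total RNA to the distal site (left) or to the proximal site (right). The vertical axis runs from 30% to 70%. The NIH3T3 siPcf11 libraries lie at 54.6% and 55.6% on the left, above their controls at 44.3% and 44.7%. The C2C12 total RNA values were used to choose the pairs.

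Levels showed the same direction in NIH3T3. Among 2263 groups higher in C2C12 and with at least 40 reads over the NIH3T3 libraries, the median NIH3T3 log2 fold change was 0.30, and 70.3% were positive. Among 2608 groups lower in C2C12 it was -0.38, with 25.9% positive, and over all 8917 groups it was 0.00, with 50.1% positive. Of the C2C12 increases, 292 were called higher in NIH3T3 (12.9%) and 15 lower (0.66%). Of the decreases, 344 were called lower (13.2%) and 17 higher (0.65%). Over all 8917 groups, 4.56% were called higher and 4.99% lower, so most changes called in C2C12 were not called in NIH3T3. Across these groups, which are not independent replicates, the changes in both lines had Pearson's r = 0.48 and Spearman's rho = 0.45. The classes by downstream distance kept their order at the extremes in NIH3T3, with medians of -0.09 (n = 835) under 10 kb and 0.04 (n = 2502) at 200 kb or more. The interaction of cell line and siPcf11 was called in 647 of 11647 groups (5.56%), a count that single libraries decide: it was 3653 without NIH3T3 siPcf11 replicate 1, 2262 without NIH3T3 siPcf11 replicate 2, 16 and 11 without either NIH3T3 control, and 0 to 48 without any one C2C12 library.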

How the data were processed

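The authors deposited, per library, a chromosome, strand, poly(A) site position and raw read count. The submitters' processing notes name cutadapt, Bowtie2, STAR and mm9, with no versions or roles. How positions were merged into sites is not given in the sources used here. Groups came from sample titles.

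Kept sites (at least 1 CPM in at least 2 of 12 C2C12 libraries) were chained on a strand over gaps of up to 5 kb. The 8 control and siPcf11 libraries of C2C12, from total and 4sU RNA, entered one edgeR 4.0.16 model (R 4.3.3, limma 3.58.1) with TMM factors, a filterByExpr minimum of 10 and quasi-likelihood tests of total RNA. P-values were adjusted by Benjamini-Hochberg over all features tested, with a threshold of 0.05. Site use was tested with diffSpliceDGE. For pairs and most 5′ sites both features were tested jointly, a change from the planned test of one feature, made after that test recovered fewer shifts in simulated counts. Of 2724 simulated pairs, the joint test called 0.472% of the unchanged ones. Of 10141 simulated site groups, 63.8% of 2-fold changes were recovered. SE is the size of the log2 change over the square root of F. NIH3T3 was fitted with the 4 total RNA libraries.

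Named site groups are the 12 largest log2 changes each way among those called, with at least 10 CPM and no overlap, and the 5 most read among those called. Named pairs (12 each way) and most 5′ sites (6 each way) have the largest changes in use, at least 50 reads in each library and no overlap, and unread sites the most reads (3 each way). Members, lists and classes were chosen with earlier results of these data known. Alternatives were DESeq2 (1.42.0), other scalings, no filter, total RNA alone, gaps of 2 and 10 kb, no mitochondrial sites, a replicate block, and each library left out. Tests of one feature, the planned ones, became an added alternative when the joint test took their place. A block joining 4sU to total RNA, the scalings of single sites within pairs, the spacing classes and all settings of the 4sU and NIH3T3 differences were added after seeing the data. Python 3.11.15 (pandas 2.3.3, numpy 2.4.6, matplotlib 3.10.9) made tables and plots.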

Additional observations from a re-analysis of the deposited data

Results flagged for a closer look

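The level response to siPcf11 differed between 4sU and total RNA of C2C12 in 95 site groups by a test of the difference itself (edgeR interaction, Benjamini-Hochberg adjusted p under 0.05), 77 of them with the higher value in 4sU RNA. The count was 33 without control replicate 1, 62 without control replicate 2, 48 without siPcf11 replicate 1 and 86 without siPcf11 replicate 2.

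The shift of pairs differed between 4sU and total RNA in 3 pairs by the same kind of test.

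The level response differed between C2C12 total RNA and NIH3T3 in 647 site groups, 301 with the higher value in C2C12 and 346 with the lower. Without single libraries this count lay between 0 (without C2C12 siPcf11 replicate 2) and 3653 (without NIH3T3 siPcf11 replicate 1).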

How the results depend on the processing

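Under all settings run, more pairs moved to the distal than to the proximal site, more most 5′ sites lost than gained use, and mean distal use was higher under siPcf11, by 3.24 to 5.14 percentage points. Gaps of 2 kb, which leave fewer sites per group, gave 496 pairs to the distal site and 707 sites changed in use (329 more, 378 less). Testing one feature alone gave 422 pairs (326 to the distal, 96 to the proximal site) and 520 most 5′ sites (408 less, 112 more used). DESeq2 called 2811 single sites lower in level in place of 4239. Without one library at a time, sites that lost use numbered 416 to 448, below the 630 with all libraries, the fewest without siPcf11 replicate 2. The difference from 4sU RNA was called in 33 to 86 site groups without one library and the difference from NIH3T3 in 0 to 3653. The cause of these changes was not tested, apart from the fewer sites with 2 kb gaps.

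No pairing by replicate number was seen: deviations of same-numbered libraries correlated at 0.05 (siPcf11 with control, total RNA), -0.01 and 0.06 (4sU with total RNA). Counting noise in single libraries lowers such correlations, so they cannot decide whether same-numbered libraries share a culture or batch. With the number as a block, 5859 site groups and 1036 pairs were called in place of 5735 and 1024, and the difference from 4sU RNA in 235 in place of 95. Of 71 named features, 2 changed their side of the threshold in some setting, and none reversed.

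Limits: there are 2 libraries per group and no gene annotation of the build, and site groups are not genes.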
